A study of Homo sapiens with 16 samples.

Results

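Pyruvate dehydrogenase is the mitochondrial complex that turns pyruvate into acetyl-CoA, and the genes described here encode part of the complex together with the kinases and phosphatases that switch it. The members were chosen by name, as the rows of the count table for PDK1, PDK2, PDK3, PDK4, PDP1, PDP2, PDHA1, PDHB, DLAT and PDHX. All 10 were among the 23669 genes of the table, and all 10 passed the filter on low counts that left 15520 genes for testing.

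The RNA was poly(A) RNA of HCT116, an established line of human colorectal carcinoma, in 4 derivatives at 2 oxygen levels. HIF1A-/- cells carried a genetic deletion of HIF1A, the gene of the subunit through which hypoxia-inducible factor 1 follows oxygen, and their labels name no shRNA. The shCDK8 cells stably expressed an shRNA to CDK8, one of the Mediator kinases, and the shTIP60 cells an shRNA against TIP60, the acetyltransferase encoded by KAT5. The shNT cells, their control, stably expressed a non-targeting shRNA. Each derivative was kept at 1% O2 for 24 h (hypoxia) or at 21% O2 (normoxia), and each of the 8 groups had 2 libraries, stated in the series' design to be independent biological replicates. Each altered line was a single line, so effects of clone, vector or off-target action cannot be told apart from loss of the target. Levels are in CPM, which are counts divided by the scaled size of their library and multiplied by the same number for every library. Levels are written for library A, of the lower series of library numbers, and then for library B, of the higher series. Changes are log2 fold changes ± SE from edgeR's quasi-likelihood test, and a gene was called at an adjusted p (Benjamini-Hochberg over 15520 genes) under 0.05.

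The 16 libraries held 26620086 to 39401494 counts, so that a floor of 3 counts lay at 0.0716 to 0.112 CPM. KAT5 was at 19.1 to 22.0 CPM in the 4 shTIP60 libraries, against 84.8 to 93.6 CPM in the 4 shNT libraries. CDK8 was at 5.45 to 6.80 CPM in the shCDK8 libraries, against 24.8 to 28.3 CPM in the shNT libraries. HIF1A was at 40.1 and 57.6 CPM in HIF1A-/- cells in hypoxia, against 61.2 and 70.5 CPM in shNT cells in hypoxia, and at 13.02 and 14.1 CPM in HIF1A-/- cells in normoxia, against 106.9 and 108.1 CPM in shNT cells in normoxia. Gene counts do not show which exons of HIF1A these reads cover. Among 8 epithelial markers, keratins KRT8, KRT18 and KRT19, CDH1 and EPCAM were at 24.98 CPM or more in every library. Of the intestinal genes, VIL1 and LGALS4 reached at most 11 and 26 counts, while CDX2 was at 6.27 to 30.6 CPM. Leukocyte markers summed to at most 1.44 CPM and endothelial markers to at most 2.89 CPM. The 5 fibroblast markers summed to 43.6 to 82.7 CPM in hypoxia and 21.7 to 40.7 CPM in normoxia, nearly all of it COL1A1, while COL1A2 reached 3 counts and LUM was at 0 in every library. In bulk RNA, fewer cells with a transcript and less of it in each cell cannot be told apart.

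In GRCh37 coordinates, PDK1 lies on chromosome 2 (173420101 to 173473397), PDK2 on chromosome 17 (48172101 to 48189516), PDK3 on chromosome X (24483361 to 24568583) and PDK4 on chromosome 7 (95212811 to 95225828). PDP2 lies on chromosome 16 (66912492 to 66929657), PDHA1 on X (19362011 to 19379836), PDHB on 3 (58413357 to 58419584), and DLAT and PDHX on 11 (111896132 to 111935128 and 34937376 to 35042138). The E1 component of the complex, a tetramer of PDHA1 and PDHB, decarboxylates pyruvate; DLAT is the E2 acetyltransferase that forms acetyl-CoA, and PDHX tethers the E3 component to the E2 core. PDK1 to PDK4 phosphorylate PDHA1 and switch the complex off, and PDP1 and PDP2 remove the phosphate and switch it on. PDK1 is a textbook target of hypoxia-inducible factor 1, through which cells low in oxygen divert pyruvate away from mitochondria, while PDK4 is best known for its response to fasting, glucocorticoid and fatty acids in muscle and liver.

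Hypoxia-inducible factors bind a short core that reads ACGTG or GCGTG. The promoter windows of PDK1, PDK3 and PDP2 are shown because the hypoxia responses of these members depended most on the line. Each window runs from 250 bases before to 50 bases after the annotated start (RefSeq, GRCh38.p14), and capitals mark either core on either strand.
PDK1 (chr2:172555840-172556139, plus strand): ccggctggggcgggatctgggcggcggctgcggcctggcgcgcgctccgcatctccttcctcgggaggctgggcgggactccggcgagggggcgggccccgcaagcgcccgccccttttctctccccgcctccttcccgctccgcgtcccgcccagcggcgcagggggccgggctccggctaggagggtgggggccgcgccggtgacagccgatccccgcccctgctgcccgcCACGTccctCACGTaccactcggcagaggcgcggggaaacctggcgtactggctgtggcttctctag
PDK3 (chrX:24465036-24465335, plus strand): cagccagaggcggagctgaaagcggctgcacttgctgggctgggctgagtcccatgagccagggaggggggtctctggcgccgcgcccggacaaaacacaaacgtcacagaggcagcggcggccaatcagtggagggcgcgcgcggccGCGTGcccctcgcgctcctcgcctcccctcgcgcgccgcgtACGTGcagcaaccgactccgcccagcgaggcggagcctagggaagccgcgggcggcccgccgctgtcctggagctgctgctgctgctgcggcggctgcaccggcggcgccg
PDP2 (chr16:66880265-66880564, plus strand): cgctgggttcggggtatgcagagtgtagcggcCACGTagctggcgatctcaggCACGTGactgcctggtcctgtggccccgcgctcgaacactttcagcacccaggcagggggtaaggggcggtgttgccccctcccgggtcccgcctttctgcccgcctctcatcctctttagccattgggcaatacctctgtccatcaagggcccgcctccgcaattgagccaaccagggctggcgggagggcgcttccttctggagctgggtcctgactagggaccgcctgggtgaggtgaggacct
The PDK1 window held ACGTG on its minus strand from 17 and from 8 bases before the start (positions -17 and -8). The PDK3 window held GCGTG at -102 and ACGTG at -61, both on the plus strand. The PDP2 window held 3 matches of ACGTG, of which the pair at -197 and -196 overlap as a palindrome. Another annotated PDK1 window and the single PDK4 window held neither core. Of the PDK2 windows 1 held 3 matches, a palindrome at -129 and -128 among them, and the other two held none, and of the PDHX windows 1 held 2 matches and the other none. The single DLAT, PDHA1 and PDHB windows held 3, 4 and 6 matches, and no window was used for PDP1. At least 1 match stood in 48.45% of 35116 windows of the same length, at least 2 in 23.14% and at least 3 in 10.08%. A match is a description of letters and neither a site nor a cause.

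PDK1 was the member that hypoxia moved most in each of the 3 shRNA lines. Its rise was smaller in HIF1A-/- than in shNT cells, and in HIF1A-/- cells PDP2 had the larger log2 change. In HIF1A-/- cells it was at 18.2 and 27.0 CPM in hypoxia, against 8.63 and 10.4 CPM in normoxia, a 2.38-fold rise (log2 1.25 ± 0.19, adjusted p = 0.000136). The shCDK8 cells had 94.1 and 100.3 CPM in hypoxia, against 12.2 and 9.69 CPM in normoxia (log2 3.15 ± 0.20, adjusted p = 3.54e-08). In shTIP60 cells it was at 116.9 and 115.5 CPM in hypoxia, against 12.9 and 10.6 CPM in normoxia (log2 3.31 ± 0.20, adjusted p = 1.47e-08). Hypoxic and normoxic libraries did not overlap in any of these lines. In shNT cells PDK1 was at 103.5 and 136.4 CPM in hypoxia, against 13.1 and 12.4 CPM in normoxia, a 9.41-fold rise (log2 3.23 ± 0.20, adjusted p = 1.19e-08), again with no overlap.

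Both hypoxic HIF1A-/- libraries were under every hypoxic library of the other lines. In hypoxia PDK1 was lower in HIF1A-/- than in shNT cells (log2 -2.41 ± 0.19, adjusted p = 1.43e-07), and the difference between the responses of these lines was -1.98 ± 0.27 (adjusted p = 0.000225). In normoxia the log2 difference between HIF1A-/- and shNT cells was -0.42 ± 0.19 and was not called (adjusted p = 0.192). Ordered by mean level, hypoxic shNT and shTIP60 cells came first and did not separate, followed by hypoxic shCDK8 and hypoxic HIF1A-/- cells, each clear of its neighbours. The 4 normoxic groups followed, and none of them was clear of the next normoxic group. All normoxic HIF1A-/- and shCDK8 libraries were nevertheless under both normoxic shNT libraries. The normoxic difference between shCDK8 and shNT cells, log2 -0.22 ± 0.19, was not called (adjusted p = 0.517).

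PDK3, the kinase reported to be least inhibited by pyruvate, rose in the 3 shRNA lines. In HIF1A-/- cells it was at 21.3 and 29.8 CPM in hypoxia, against 20.2 and 24.3 CPM in normoxia. Those groups overlapped, and the log2 change of 0.20 ± 0.16 was not called (adjusted p = 0.357, 95% interval -0.15 to 0.55). The shCDK8 cells had 42.4 and 51.8 CPM in hypoxia, against 15.6 and 17.0 CPM in normoxia (log2 1.53 ± 0.17, adjusted p = 1.03e-05). The shTIP60 cells had 48.6 and 43.5 CPM in hypoxia, against 16.5 and 17.4 CPM in normoxia (log2 1.44 ± 0.17, adjusted p = 7.83e-06). The shNT cells had 59.4 and 63.6 CPM in hypoxia, against 16.5 and 17.6 CPM in normoxia (log2 1.85 ± 0.17, adjusted p = 7.05e-07). The groups did not overlap in any shRNA line. The response of PDK3 was smaller in HIF1A-/- than in shNT cells (difference of log2 changes -1.65 ± 0.23, adjusted p = 0.000282), and its hypoxic level was lower (log2 -1.27 ± 0.16, adjusted p = 1.94e-05). In normoxia both HIF1A-/- libraries were above all 6 libraries of the other lines, at a log2 difference from shNT of 0.39 ± 0.16 that was not called (adjusted p = 0.155).

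**Figure D1:**
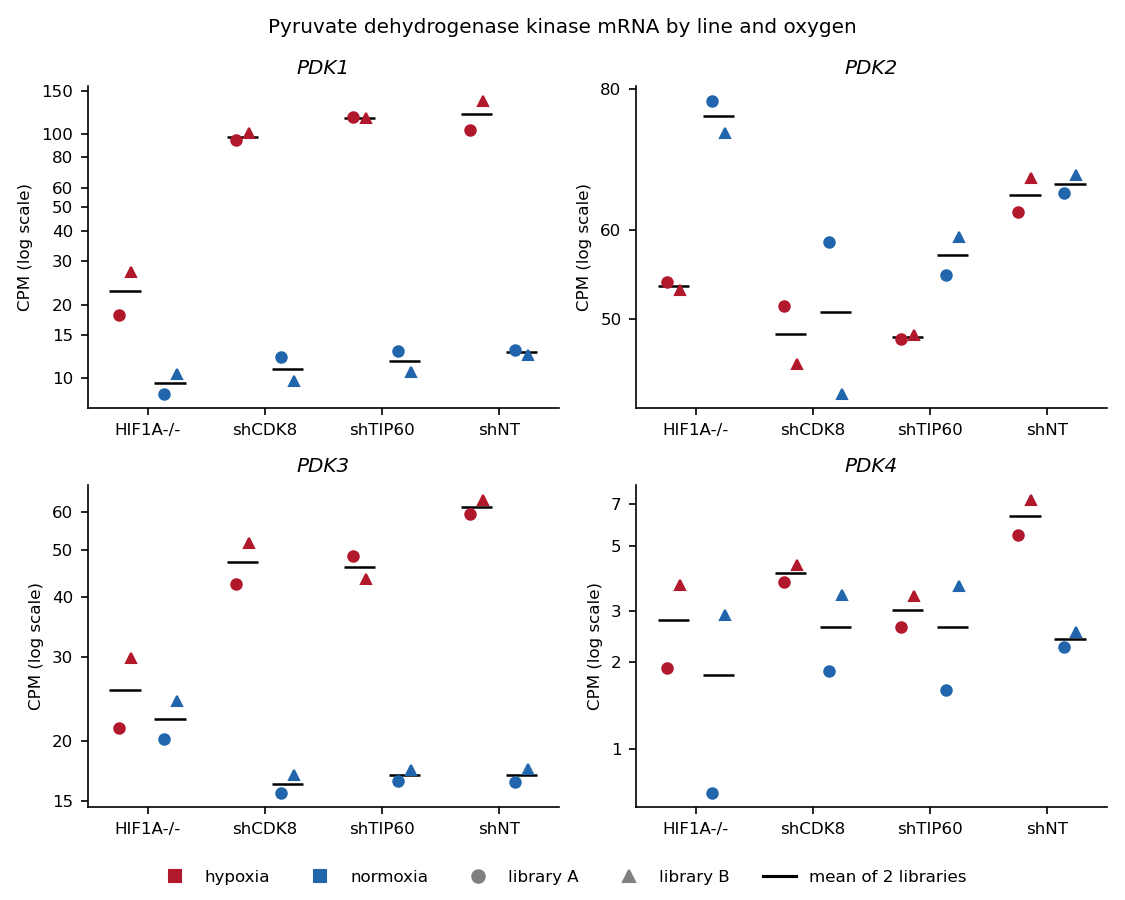
Levels of the 4 kinase mRNAs in CPM (log axes) in each line, hypoxia in red and normoxia in blue, with a circle for library A, a triangle for library B and a line at the mean of 2 libraries. PDK1 and PDK3 are high in hypoxia in shCDK8, shTIP60 and shNT cells and lower than these in hypoxic HIF1A-/- cells, while PDK2 stays between 43.0 and 78.1 CPM throughout.

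PDK2, the broadly expressed kinase of the family, fell in HIF1A-/- cells and was called in no shRNA line. In HIF1A-/- cells it was at 53.9 and 53.1 CPM in hypoxia, against 78.1 and 73.1 CPM in normoxia (log2 -0.50 ± 0.14, adjusted p = 0.00954), with no overlap. The call was lost without HIF1A-/- hypoxia library B (adjusted p = 0.0510). The log2 changes were -0.06 in shCDK8, -0.24 in shTIP60 and -0.03 in shNT cells, whose levels were 62.2 and 66.7 CPM in hypoxia, against 64.7 and 67.1 CPM in normoxia. The response of HIF1A-/- cells differed from that of shNT cells by -0.47 ± 0.19, which was not called (adjusted p = 0.115). In hypoxia PDK2 was lower in shCDK8 than in shNT cells (log2 -0.41 ± 0.14, adjusted p = 0.0368) and lower in shTIP60 than in shNT cells (log2 -0.42 ± 0.14, adjusted p = 0.0401). The highest of the 4 hypoxic shCDK8 and shTIP60 libraries was at 51.4 CPM. Neither call held when any 1 of the 4 libraries compared was left out (adjusted p 0.0594 to 0.214 for shCDK8 and 0.0617 to 0.193 for shTIP60).

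PDK4 was the least abundant kinase, with 28 to 219 counts per library. HIF1A-/- cells had 1.90 and 3.67 CPM in hypoxia, against 0.707 and 2.91 CPM in normoxia, with a log2 change of 0.63 ± 0.51 that was not called. The shCDK8 cells had 3.76 and 4.32 CPM in hypoxia, against 1.86 and 3.39 CPM in normoxia, and the shTIP60 cells 2.64 and 3.38 CPM in hypoxia, against 1.59 and 3.66 CPM in normoxia. Their log2 changes of 0.61 and 0.19 were not called either. PDK4 was at 5.45 and 7.24 CPM in hypoxic shNT cells, against 2.25 and 2.53 CPM in normoxic shNT cells, and it rose there (log2 1.41 ± 0.48, adjusted p = 0.0291), while no difference in response from shNT cells was called. Library B was above library A in 8 of 8 groups, by 1.13 to 4.11 times, an offset that followed the series of library numbers. Within the A libraries the log2 ratio of hypoxia to normoxia in shNT cells was 1.28 and within the B libraries 1.52. The call in shNT was lost without shNT normoxia library A, without shNT normoxia library B or without shNT hypoxia library B (adjusted p up to 0.142), and with library totals in place of scaling factors (adjusted p = 0.0642). PDK4-AS1 lies across the whole of PDK4 on the opposite strand, and the strand setting of the counting is not given in the sources used here, so reads of this pair cannot be told apart.

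To compare levels between kinases, CPM were divided by the length of each gene's merged exons in kilobases (CPM per kb). On this scale PDK2 was the highest of the 4 kinases in all 8 groups and PDK4 the lowest, at 12.0 ± 0.314 and 0.526 ± 0.0441 CPM per kb in normoxic shNT cells (SD, n = 2). PDK1 made up 11.3% ± 2.36 of the summed kinase level in hypoxic HIF1A-/- cells, against 3.97% ± 0.533 in normoxic HIF1A-/- cells. Its share was 34.4% ± 1.495 in hypoxic and 6.39% ± 0.0111 in normoxic shCDK8 cells, and 39.2% ± 0.141 in hypoxic and 6.23% ± 1.25 in normoxic shTIP60 cells. It was 32.5% ± 2.93 in hypoxic and 5.97% ± 0.375 in normoxic shNT cells. The share of PDK2 was 47.7% ± 2.66 in hypoxic and 83.6% ± 0.0329 in normoxic shNT cells. The order in hypoxic shNT cells depended on the length used: PDK2 came first by merged exons, PDK3 by the canonical transcript (54.6% ± 1.29 of the sum) and PDK1 by coding sequence (45.6% ± 3.46), while PDK2 was first in normoxic shNT cells under all 3 lengths. The first place moved likewise in hypoxic shCDK8 and shTIP60 cells. There PDK3 was first by canonical transcript (27.0 and 26.5 CPM per kb) and PDK1 by coding sequence (74.3 and 88.8 CPM per kb).

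**Figure D2:**
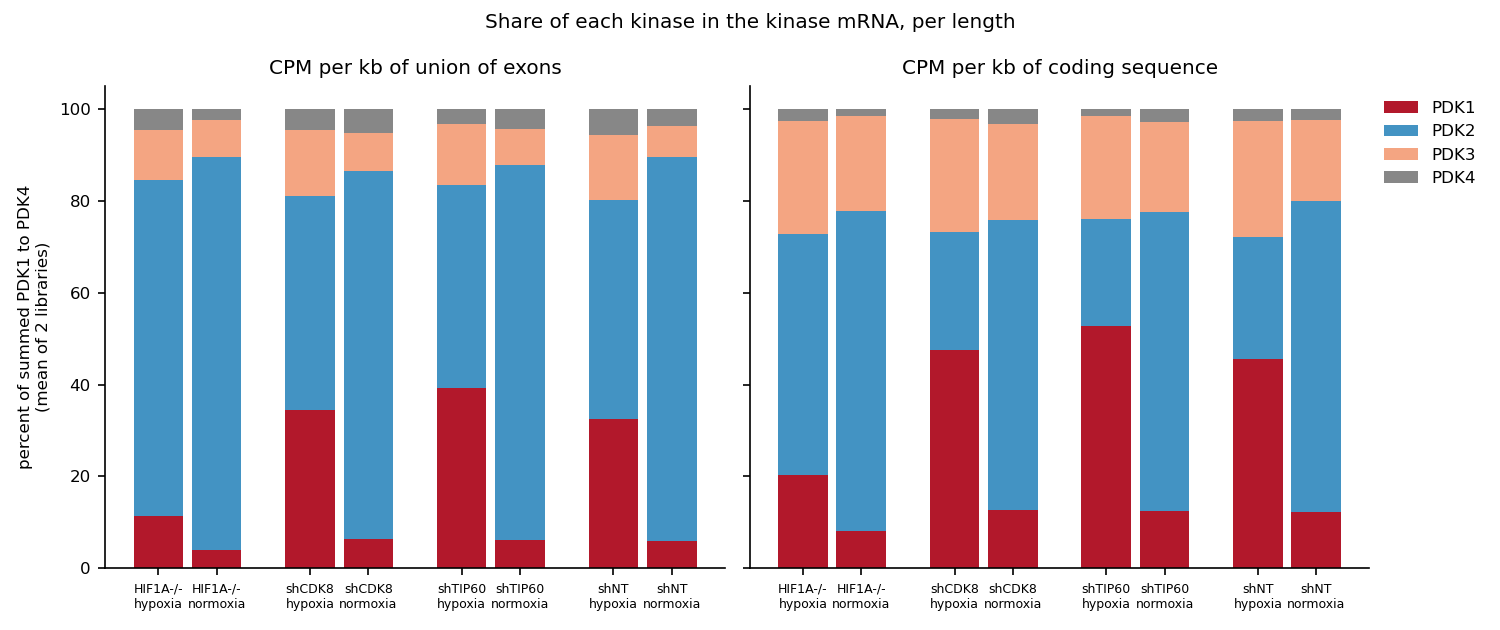
Share of each kinase in the summed CPM per kb of PDK1 to PDK4 (percent, mean of 2 libraries), by merged exons on the left and by coding sequence on the right, with hypoxia left of normoxia in each line. The PDK1 share is larger in hypoxia than in normoxia in every line under both lengths and is smallest among hypoxic groups in HIF1A-/- cells, at 11.3% by merged exons and 20.3% by coding sequence.

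The summed kinase level also moved against that of the enzyme the kinases act on. Kinases over PDHA1, both in CPM per kb of merged exons, came to 0.836 ± 0.0935 in hypoxic and 0.985 ± 0.0296 in normoxic HIF1A-/- cells (SD, n = 2). The ratio was 1.11 ± 0.0401 in hypoxic and 0.643 ± 0.0940 in normoxic shCDK8 cells, and 1.71 ± 0.113 in hypoxic and 0.764 ± 0.0628 in normoxic shTIP60 cells. It was 1.99 ± 0.153 in hypoxic and 0.740 ± 0.00673 in normoxic shNT cells. Hypoxia libraries lay above normoxia libraries in the 3 shRNA lines under all 3 lengths. In HIF1A-/- cells they lay under them by merged exons, but overlapped them by canonical transcript (1.23 and 1.56 in hypoxia, against 1.44 and 1.57 in normoxia) and by coding sequence (1.10 and 1.39 in hypoxia, against 1.24 and 1.33 in normoxia). The size of the ratio depended on the length as well, being 1.96 by canonical transcript and 2.16 by coding sequence in hypoxic shCDK8 cells. Kinases over the sum of PDP1 and PDP2, also per kb of merged exons, came to 0.0478 ± 0.00997 in hypoxic and 0.0874 ± 0.0210 in normoxic HIF1A-/- cells. In hypoxia and normoxia this ratio was 0.167 ± 0.0193 and 0.113 ± 0.0332 in shCDK8 cells, and 0.159 ± 0.00446 and 0.116 ± 0.00113 in shTIP60 cells. It was 0.0974 ± 0.00912 in hypoxic and 0.0795 ± 0.00444 in normoxic shNT cells. These ratios are of mRNA and carry no test.

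PDP1, the calcium-stimulated phosphatase, was the most abundant member, with a mean of 932.6 CPM over the 16 libraries, rank 94 of 23669 genes. In hypoxia it was at 575.5 and 680.5 CPM in shCDK8 cells and at 693.2 and 659.4 CPM in shTIP60 cells, against 1217 and 1610.8 CPM in shNT cells. In normoxia it was at 509.4 and 621.2 CPM in shCDK8 cells and at 559.6 and 623.7 CPM in shTIP60 cells, against 936.5 and 1048 CPM in shNT cells. All 8 libraries of the 2 knockdown lines lay under all 4 shNT libraries. PDP1 was lower in shCDK8 than in shNT cells in hypoxia (log2 -1.17 ± 0.21, adjusted p = 0.000633) and in normoxia (log2 -0.81 ± 0.20, adjusted p = 0.0139). The corresponding values for shTIP60 were -1.06 ± 0.21 (adjusted p = 0.00158) and -0.75 ± 0.20 (adjusted p = 0.0177). At each oxygen level both comparisons share the shNT libraries. Both calls in hypoxia held without any 1 of the 4 libraries, and the shTIP60 call in normoxia was lost without any 1 of them (adjusted p 0.0517 to 0.149). The shCDK8 call in normoxia was lost without shNT library B or shCDK8 library A (adjusted p up to 0.111).

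HIF1A-/- cells had PDP1 at 1248 and 1854 CPM in hypoxia, against 865.3 and 1218 CPM in normoxia, and it rose (log2 0.57 ± 0.20, adjusted p = 0.0359). That call was lost without HIF1A-/- normoxia library A or HIF1A-/- hypoxia library B (adjusted p up to 0.415), and with library totals, a filter at 5 CPM or a fit of this line alone. In shNT cells the log2 change of 0.51 ± 0.20 was not called (adjusted p = 0.0563), although the hypoxic libraries lay above the normoxic ones. The PDP1 response of HIF1A-/- cells differed from that of shNT cells by 0.06 ± 0.29, which was not called (adjusted p = 0.913). Library B was above library A for PDP1 in 7 of 8 groups, and within each series the hypoxia to normoxia log2 ratio in HIF1A-/- cells was 0.53 for A and 0.61 for B.

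PDP2, the insulin-responsive phosphatase, was distinguished by a rise in HIF1A-/- cells. It was at 73.6 and 110.8 CPM in hypoxic HIF1A-/- cells, against 30.2 and 38.9 CPM in normoxic HIF1A-/- cells, a 2.67-fold rise (log2 1.42 ± 0.20, adjusted p = 5.19e-05). The shNT cells had 30.1 and 41.6 CPM in hypoxia, against 33.8 and 41.7 CPM in normoxia, and the log2 change of -0.08 ± 0.19 was not called (adjusted p = 0.790). Both hypoxic HIF1A-/- libraries were above the other 14 libraries, the highest of which reached 41.8 CPM. The response differed between HIF1A-/- and shNT cells by 1.49 ± 0.28 (adjusted p = 0.00207), and the hypoxic level by 1.36 ± 0.20 (adjusted p = 5.40e-05). Library B was above library A in 8 of 8 groups, and the log2 ratio of hypoxia to normoxia in HIF1A-/- cells was 1.28 within the A libraries and 1.51 within the B libraries.

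In shCDK8 cells PDP2 was at 21.8 and 24.5 CPM in hypoxia and at 24.4 and 26.0 CPM in normoxia, under all libraries of the other lines. It was lower than in shNT cells in hypoxia (log2 -0.63 ± 0.20, adjusted p = 0.0258). The log2 difference of -0.58 ± 0.20 in normoxia was not called (adjusted p = 0.0629). The hypoxic call was lost without shNT library B, shCDK8 library A or shCDK8 library B (adjusted p up to 0.287). In shTIP60 cells PDP2 was at 40.7 and 41.8 CPM in hypoxia, against 33.5 and 33.8 CPM in normoxia, a log2 change of 0.29 ± 0.19 that was not called (adjusted p = 0.252).

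**Figure D3:**
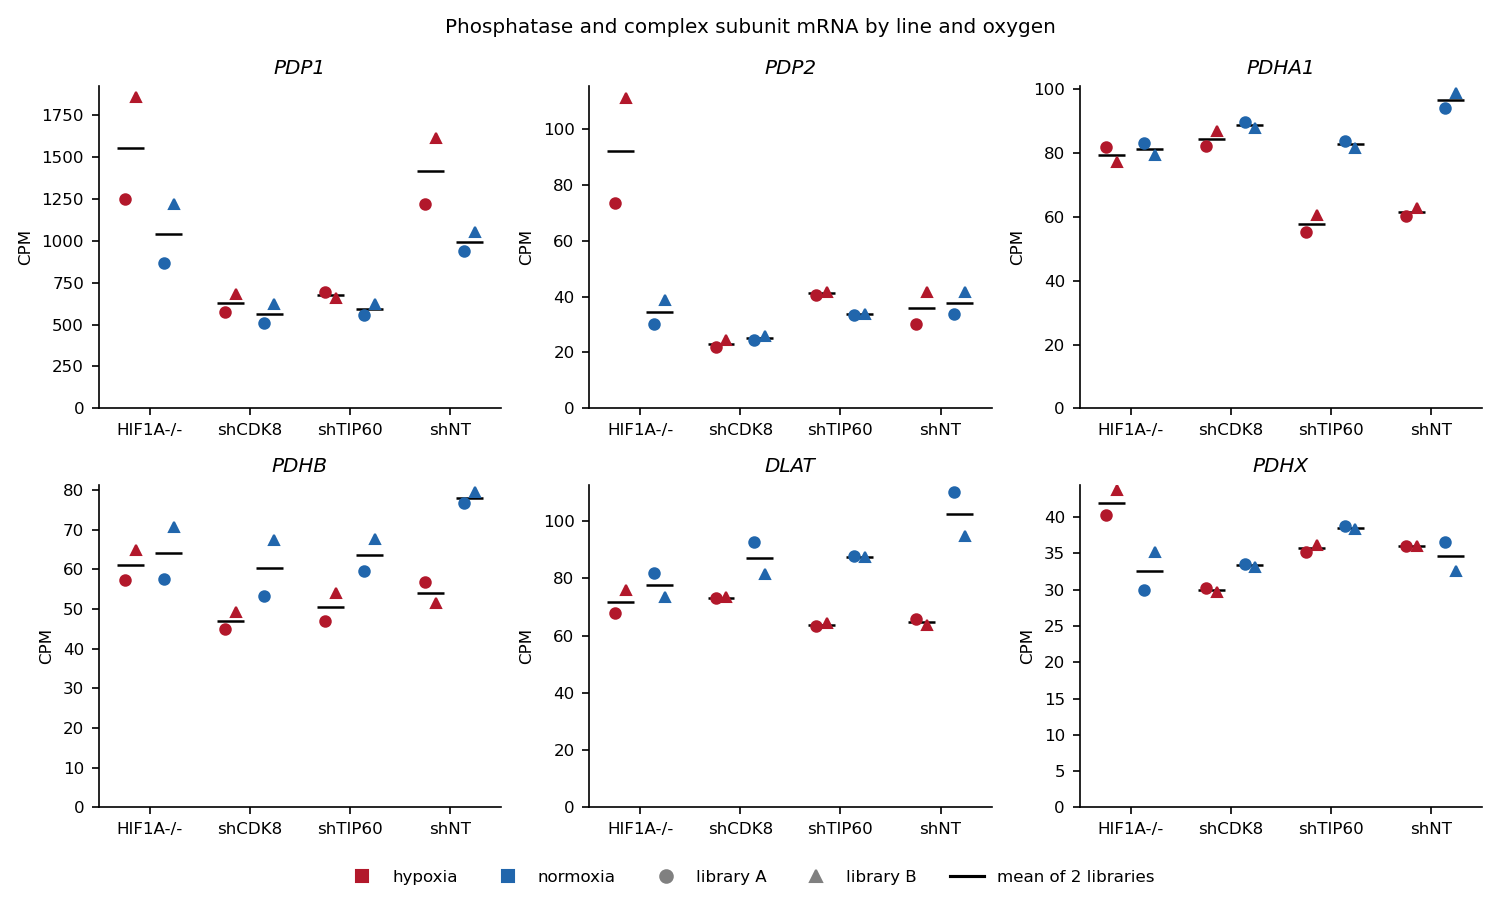
Levels of the 2 phosphatases and 4 complex subunits in CPM (axes from 0) in each line, hypoxia in red and normoxia in blue, with a circle for library A, a triangle for library B and a line at the mean of 2 libraries. PDP1 is low in shCDK8 and shTIP60 cells at both oxygen levels, PDP2 is high only in hypoxic HIF1A-/- cells among these 8 groups, and PDHA1 is low in hypoxic shTIP60 and shNT cells.

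The catalytic subunits of the complex were not called between hypoxia and normoxia in HIF1A-/- or shCDK8 cells, and fell in shTIP60 and shNT cells, in shTIP60 cells for PDHA1 and DLAT. PDHA1 is the E1 alpha subunit that the kinases phosphorylate, PDHB the E1 beta subunit and DLAT the E2 subunit. In HIF1A-/- cells PDHA1 was at 81.8 and 77.1 CPM in hypoxia, against 83.1 and 79.3 CPM in normoxia (log2 -0.03 ± 0.11, 95% interval -0.26 to 0.20). DLAT was at 67.8 and 76.1 CPM in hypoxia, against 82.0 and 73.5 CPM in normoxia, and PDHB at 57.3 and 64.8 CPM in hypoxia, against 57.5 and 70.6 CPM in normoxia. For all 3 genes the hypoxic and normoxic libraries overlapped. The PDHA1 response of HIF1A-/- cells differed from that of shNT cells by 0.62 ± 0.15 (adjusted p = 0.0132), and the DLAT response by 0.55 ± 0.17 (adjusted p = 0.0381). The PDHB difference of 0.46 ± 0.21 was not called (adjusted p = 0.145). The DLAT difference was lost without any 1 of 5 of the 8 libraries, namely shNT normoxia library A, both shNT hypoxia libraries, and HIF1A-/- normoxia and hypoxia libraries B (adjusted p up to 0.178). In hypoxia PDHA1 was higher in HIF1A-/- than in shNT cells (log2 0.37 ± 0.11, adjusted p = 0.0129), a call lost without shNT library A or HIF1A-/- library A (adjusted p up to 0.0722). In normoxia DLAT was lower in HIF1A-/- than in shNT cells (log2 -0.40 ± 0.12, adjusted p = 0.0409), and no removal of a library kept that call (adjusted p 0.0530 to 0.318).

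In shCDK8 cells no subunit was called. PDHB was at 45.0 and 49.2 CPM in hypoxia, against 53.4 and 67.5 CPM in normoxia, without overlap (log2 -0.36 ± 0.15, adjusted p = 0.0862), and it was called without shCDK8 normoxia library A (adjusted p = 0.0318). PDHA1 was at 82.3 and 86.8 CPM in hypoxia, against 89.6 and 87.9 CPM in normoxia (log2 -0.07 ± 0.11), and DLAT at 73.2 and 73.5 CPM in hypoxia, against 92.8 and 81.6 CPM in normoxia (log2 -0.25 ± 0.12). The hypoxic libraries of PDHA1 and DLAT also lay under the normoxic ones, as did those of PDHX (log2 -0.16 ± 0.12, adjusted p = 0.376). In hypoxia PDHA1 was higher in shCDK8 than in shNT cells (log2 0.46 ± 0.11, adjusted p = 0.00560), a call that held without any 1 of the 4 libraries. The difference in the PDHA1 response between shCDK8 and shNT cells, 0.58 ± 0.15, was not called by edgeR (adjusted p = 0.171, 95% interval 0.25 to 0.90).

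In shTIP60 cells PDHA1 was at 55.4 and 60.4 CPM in hypoxia, against 83.8 and 81.7 CPM in normoxia, and fell (log2 -0.51 ± 0.11, adjusted p = 0.00149). DLAT was at 63.3 and 64.3 CPM in hypoxic shTIP60 cells, against 87.7 and 87.4 CPM in normoxic ones, and also fell (log2 -0.46 ± 0.12, adjusted p = 0.00726), a call lost without shTIP60 hypoxia library A (adjusted p = 0.0568). PDHB had a log2 change of -0.33 ± 0.15 in shTIP60 cells and was not called (adjusted p = 0.0828). PDHX was not called there either (log2 -0.11 ± 0.12, adjusted p = 0.497). For both genes the hypoxic shTIP60 libraries lay under the normoxic ones.

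In shNT cells all 3 catalytic subunits fell. PDHA1 was at 60.4 and 62.8 CPM in hypoxia, against 94.1 and 98.8 CPM in normoxia (log2 -0.65 ± 0.11, adjusted p = 0.000218). DLAT was at 65.9 and 63.6 CPM in hypoxia, against 110.3 and 94.95 CPM in normoxia (log2 -0.66 ± 0.12, adjusted p = 0.000446). PDHB was at 56.7 and 51.6 CPM in hypoxia, against 76.6 and 79.5 CPM in normoxia (log2 -0.53 ± 0.15, adjusted p = 0.00918). No hypoxic library of these 3 genes reached the level of a normoxic one. The PDHB call was lost without shNT hypoxia library B (adjusted p = 0.0718). PDHX, the tethering subunit, was at 36.0 CPM in both hypoxic shNT libraries, against 36.5 and 32.6 CPM in normoxic ones, and was not called (log2 0.06 ± 0.12, 95% interval -0.20 to 0.32).

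PDHX rose in HIF1A-/- cells, at 40.2 and 43.7 CPM in hypoxia, against 30.01 and 35.1 CPM in normoxia (log2 0.37 ± 0.12, adjusted p = 0.0264). The call was lost without HIF1A-/- normoxia library A or HIF1A-/- hypoxia library B (adjusted p up to 0.245), and with library totals (log2 0.09). The PDHX response of HIF1A-/- cells differed from that of shNT cells by 0.31 ± 0.17, which was not called (adjusted p = 0.244). Several members overlap another gene on the opposite strand. Among these partners are SAMD14 over 2113 bases of PDK2, MAP3K15 over 1663 bases of PDHA1 and PDK1-AS1 over 1224 bases of PDK1. PIH1D2 lies over 1187 bases of DLAT and APIP over 551 bases of PDHX. The counts of such members are uncertain to the extent that reads of the partner were included. PDHA2 is an intronless copy of PDHA1, and reads shared by the pair are uncertain too.

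**Figure D4:**
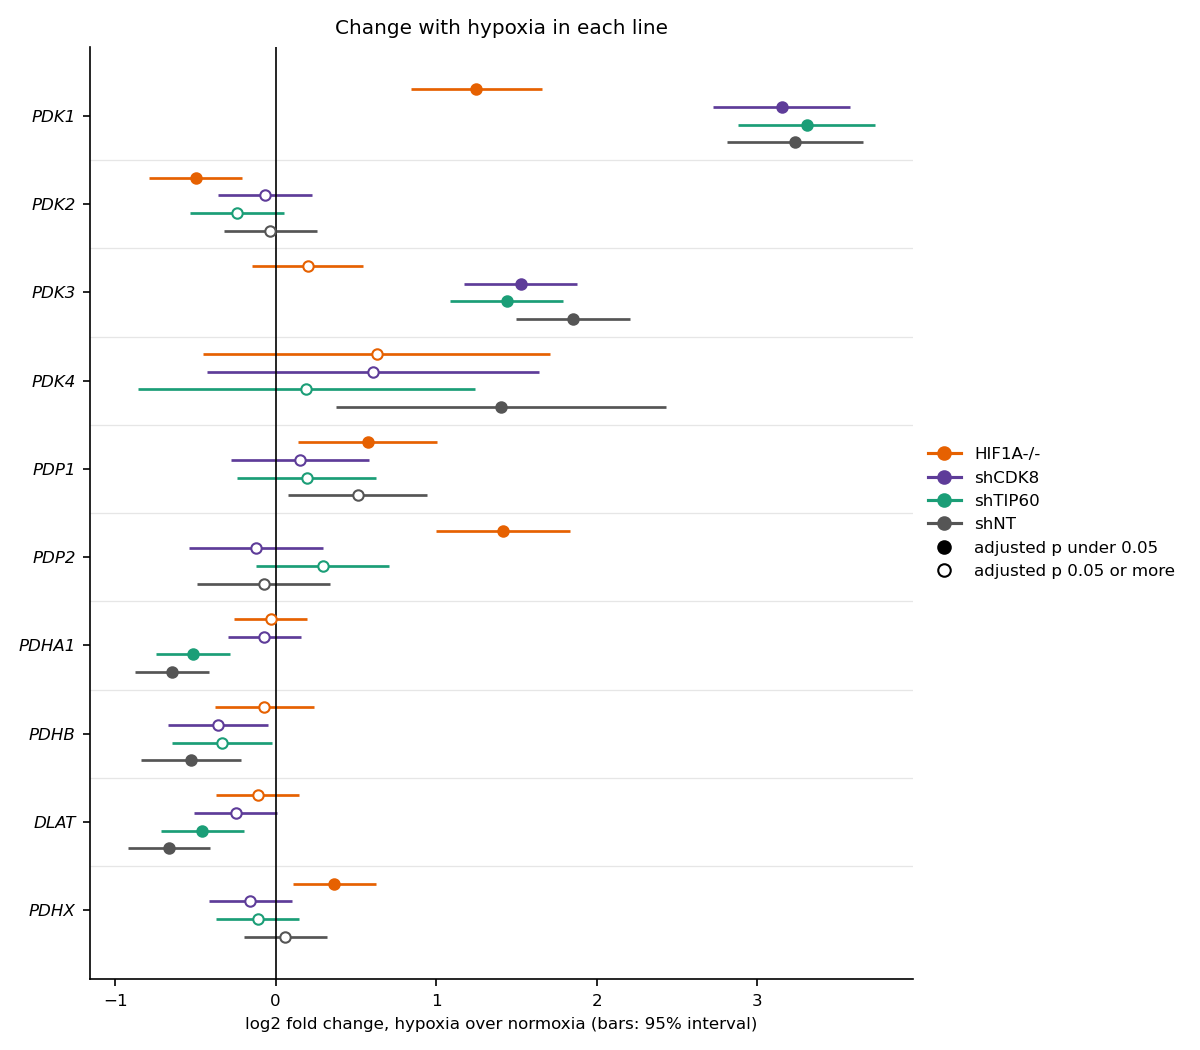
Log2 fold change of each member, hypoxia over normoxia, in the 4 lines, with 95% intervals as bars and filled points where the adjusted p was under 0.05. PDK1 lies between 3.15 and 3.31 in the 3 shRNA lines and at 1.25 in HIF1A-/- cells, and PDP2 stands apart in HIF1A-/- cells at 1.42.

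Counted over the members, the hypoxia comparison called 5 of 10 in HIF1A-/- cells, beside 38.0% of all genes tested. PDK1, PDP1, PDP2 and PDHX were higher (4 of 10, beside 18.9% of all genes) and PDK2 was lower (1 of 10, beside 19.1%). In shCDK8 cells it called 2 of 10, PDK1 and PDK3, beside 24.8% of all genes, with 2 higher (beside 13.8%) and 0 lower (beside 11.0%). The shTIP60 cells had 4 of 10 called, beside 39.2% of all genes, with PDK1 and PDK3 higher (beside 19.4%) and PDHA1 and DLAT lower (beside 19.8%). The shNT cells had 6 of 10 called, beside 40.7% of all genes, with PDK1, PDK3 and PDK4 higher (beside 20.7%) and PDHA1, PDHB and DLAT lower (beside 20.0%). The median log2 change of the members was 0.28 in HIF1A-/-, -0.07 in shCDK8, 0.04 in shTIP60 and 0.01 in shNT cells, beside medians of all genes between -0.02 and -0.00.

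Between lines in hypoxia, 4 of 10 members were called for HIF1A-/- against shNT, beside 41.1% of all genes, with PDP2 and PDHA1 higher (beside 20.3%) and PDK1 and PDK3 lower (beside 20.8%). For shCDK8 against shNT 4 of 10 were called, beside 27.9%, with PDHA1 higher (beside 14.4%) and PDK2, PDP1 and PDP2 lower (beside 13.4%). For shTIP60 against shNT 2 of 10 were called, beside 21.8%, with 0 higher (beside 11.3%) and PDK2 and PDP1 lower (beside 10.5%). In normoxia a single member was lower in each line than in shNT cells and 0 were higher. It was DLAT in HIF1A-/- cells, beside 11.7% of all genes called, 5.86% higher and 5.86% lower. It was PDP1 in shCDK8 cells, beside 13.1% called, 5.80% higher and 7.27% lower, and PDP1 again in shTIP60 cells, beside 18.4% called, 10.3% higher and 8.13% lower. The 3 comparisons in hypoxia share the hypoxic shNT libraries, and the 3 in normoxia share the normoxic ones. PDK1 was not called in hypoxia between shCDK8 and shNT cells (log2 -0.30 ± 0.18, adjusted p = 0.226) nor between shTIP60 and shNT cells (log2 -0.05 ± 0.18, adjusted p = 0.885). PDK3 had log2 differences from shNT in hypoxia of -0.39 ± 0.16 in shCDK8 (adjusted p = 0.0845) and -0.42 ± 0.16 in shTIP60 cells (adjusted p = 0.0754), neither of them called.

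The difference between a line's hypoxia response and that of shNT was called for 5 of 10 members in HIF1A-/- cells, beside 16.4% of all genes. PDP2, PDHA1 and DLAT were above the shNT response (beside 7.53% of all genes) and PDK1 and PDK3 under it (beside 8.92%). In shCDK8 cells 0 of 10 were called, beside 0.0387% of all genes (edgeR quasi-likelihood test), 0.00644% above and 0.0322% under the shNT response. At an unadjusted p under 0.05 there were 2, PDHA1 and DLAT, and DESeq2 called 1. In shTIP60 cells 0 of 10 were called, beside 0.0322% of all genes, 0.00644% above and 0.0258% under, with 0 at an unadjusted p under 0.05 and 0 by DESeq2. The 95% interval of the PDK1 difference ran from -0.64 to 0.48 in shCDK8 and from -0.48 to 0.64 in shTIP60 cells. For PDK3 it ran from -0.82 to 0.16 in shCDK8 and from -0.90 to 0.07 in shTIP60 cells.

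**Figure D5:**
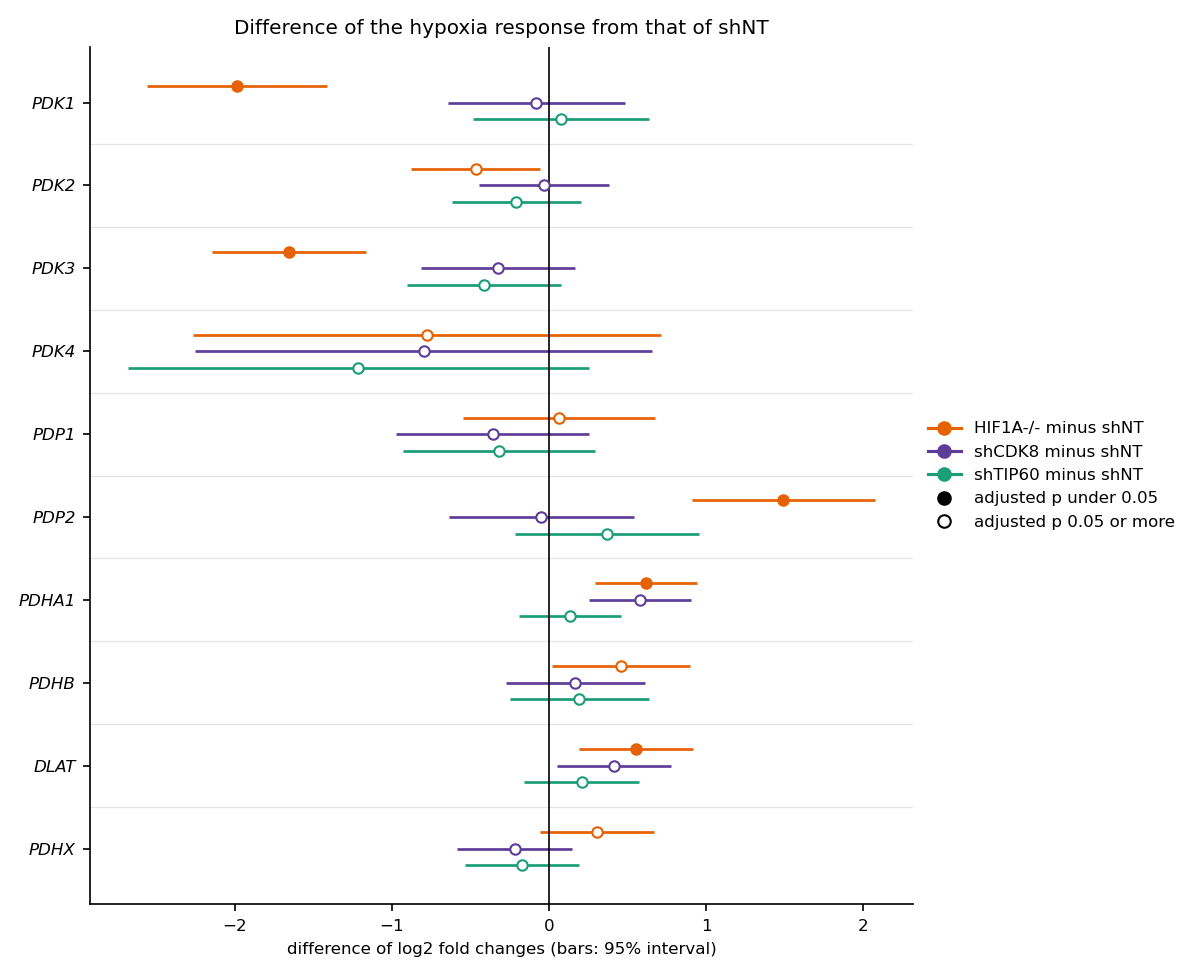
Difference between the log2 hypoxia response of each altered line and that of shNT for the 10 members, with 95% intervals as bars and filled points where the adjusted p was under 0.05. The 5 filled points all belong to HIF1A-/- cells, with PDK1 at -1.98 and PDP2 at 1.49, and those of shCDK8 and shTIP60 cells are open.

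Across the 8 group means of log2 CPM, PDK1 and PDK3 had a Pearson correlation of 0.96, and PDHA1 and DLAT one of 0.88, while PDK1 with PDK2 gave -0.41. These describe 8 points that share 4 lines and 2 oxygen levels. Among 10485 genes with a mean of at least 5 CPM, the genes most like PDK1 were LDHA, lactate dehydrogenase A (0.997), INSIG2, which retains the sterol-sensing complex in the endoplasmic reticulum (0.997), KDM4C, an oxygen-dependent histone demethylase (0.996), and WDR45L (0.994). Those most like PDK3 were TRIM46 (0.986), the histone demethylase KDM2A (0.985), FBXO42 (0.984) and PPFIA4 (0.982). For PDK4 they were ZHX3 (0.982), CRIM1 (0.967), YY1AP1 (0.952) and GAD1, which makes the transmitter GABA from glutamate (0.949). PDK2 had no equally close match, with IFT88 at 0.929, NOTUM, a secreted inhibitor of Wnt proteins, at 0.920, GCA at 0.912 and DLGAP1-AS1 at 0.912.

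Among 15 tested partners and cofactor suppliers of the complex, more fell than rose in hypoxia in each line. In all, 1 rose and 7 fell in HIF1A-/- cells, 1 rose and 5 fell in shCDK8 cells, 1 rose and 6 fell in shTIP60 cells, and 1 rose and 7 fell in shNT cells, with medians of -0.25, -0.38, -0.43 and -0.48 beside medians of all genes between -0.02 and -0.00. Of all genes, 18.9% were called higher and 19.1% lower in HIF1A-/-, 13.8% and 11.0% in shCDK8, 19.4% and 19.8% in shTIP60, and 20.7% and 20.0% in shNT cells. In shNT cells those that fell included PANK1, which starts coenzyme A synthesis (log2 -0.97 ± 0.15, adjusted p = 0.000113), and FDX1, a ferredoxin with a role in lipoylation (-0.84 ± 0.15, adjusted p = 0.000359). FDX1 had -0.02 ± 0.14 in HIF1A-/- cells and was not called, and its response differed from that of shNT (0.82 ± 0.21, adjusted p = 0.0145). DLD, the E3 subunit of the complex, chosen after its values were seen, fell in HIF1A-/- (-0.35 ± 0.13), shTIP60 (-0.67 ± 0.13) and shNT cells (-0.59 ± 0.13) and was not called in shCDK8 cells (-0.31 ± 0.13).

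Among 15 genes of pyruvate entry and its other fates, hypoxia gave 5 up and 1 down in HIF1A-/-, 7 up and 2 down in shCDK8, 7 up and 3 down in shTIP60, and 5 up and 3 down in shNT cells (medians 0.20, 0.42, 0.10 and 0.01). Of all genes, 18.9%, 13.8%, 19.4% and 20.7% were called higher in these lines and 19.1%, 11.0%, 19.8% and 20.0% lower, with medians between -0.02 and -0.00. In shNT cells LDHA, which turns pyruvate into lactate, rose (log2 1.80 ± 0.15, adjusted p = 3.62e-07), as did PKM, pyruvate kinase (1.40 ± 0.15, adjusted p = 4.46e-06), and PC, pyruvate carboxylase (1.24 ± 0.16, adjusted p = 1.78e-05). In HIF1A-/- cells LDHA rose by 0.48 ± 0.15 and PKM by 0.86 ± 0.15, and PC was not called (0.37 ± 0.16). The responses of LDHA (-1.32 ± 0.21, adjusted p = 0.000745) and PC (-0.86 ± 0.22, adjusted p = 0.0154) differed between HIF1A-/- and shNT cells, while that of PKM did not pass the test (-0.54 ± 0.21, adjusted p = 0.0955). MPC1 and MPC2, the subunits of the mitochondrial pyruvate carrier and likewise picked after their values were seen, were not called in HIF1A-/- cells (-0.05 ± 0.18 and 0.20 ± 0.15) and fell in shNT cells (-0.67 ± 0.18 and -0.51 ± 0.15).

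Of 12 genes of related dehydrogenase complexes, hypoxia gave 3 up and 1 down in HIF1A-/-, 3 up and 0 down in shCDK8, 4 up and 2 down in shTIP60, and 4 up and 2 down in shNT cells (medians -0.01, 0.24, -0.12 and 0.10). The numbers called, 4, 3, 6 and 6 of 12, stand beside 38.0%, 24.8%, 39.2% and 40.7% of all genes. In shNT cells BCKDHA, the E1 alpha subunit of the branched-chain ketoacid dehydrogenase, rose (log2 1.66 ± 0.12, adjusted p = 6.86e-08), the opposite direction to PDHA1. AMT, of the glycine cleavage system, rose (1.44 ± 0.18, adjusted p = 1.91e-05), and so did BCKDK, the kinase of the branched-chain complex (0.95 ± 0.15, adjusted p = 0.000121). BCKDK was the gene that fell in HIF1A-/- cells (-0.40 ± 0.15, adjusted p = 0.0439), and its response differed from that of shNT by -1.35 ± 0.21 (adjusted p = 0.000647).

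Of 16 known transcriptional regulators of the kinase genes, 14 were tested, HIF1A itself among them. Hypoxia gave 5 up and 2 down in HIF1A-/-, 5 up and 2 down in shCDK8, 5 up and 1 down in shTIP60, and 6 up and 2 down in shNT cells (medians 0.32, 0.31, 0.27 and 0.39). The 5 up in HIF1A-/- cells include the remaining reads of HIF1A, the gene deleted in that line. The shares of all genes called were 38.0% in HIF1A-/- (18.9% higher, 19.1% lower), 24.8% in shCDK8 (13.8% and 11.0%), 39.2% in shTIP60 (19.4% and 19.8%) and 40.7% in shNT cells (20.7% and 20.0%). In shNT cells EPAS1, which encodes HIF-2 alpha, rose (log2 1.48 ± 0.13, adjusted p = 5.81e-07), as did FOXO3, a forkhead factor (1.73 ± 0.16, adjusted p = 8.11e-07), and NR3C1, the glucocorticoid receptor (1.08 ± 0.15, adjusted p = 3.50e-05). EPAS1 was at 54.3 and 54.2 CPM in HIF1A-/- cells in hypoxia, against 44.4 and 42.6 CPM in normoxia, and was not called there (0.32 ± 0.13, adjusted p = 0.0641). FOXO3 rose in HIF1A-/- cells too (1.41 ± 0.16, adjusted p = 7.75e-06).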

How the data were processed

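The 16 libraries held poly(A) RNA read on the Ion Torrent Proton, per the labels' protocols. The deposited table holds raw counts per gene symbol. The submitters' processing notes name GSNAP, HTSeq 0.5.4p5, DESeq 1.14.0, R 3.0.3 and the build hg19. The annotation, strand setting and read filters are not given in the sources used here. Column names give the group but no replicate number, so libraries are called A and B by their series of library numbers. In each pair of libraries of a group the counts differed by more than sampling noise (chi-square per degree of freedom of 8.91 to 68.4).

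Counts were scaled by TMM factors (0.862 to 1.12), filtered with filterByExpr (minimum count 10, minimum total 15, leaving 15520 of 23669 genes), and fitted with edgeR 4.0.16 (R 4.3.3) over all 16 libraries with 8 residual degrees of freedom. Tests were 2-sided, with Benjamini-Hochberg adjustment over all genes tested and a threshold of 0.05. Comparisons (13) set hypoxia against normoxia within lines, each altered line against shNT within oxygen levels, and each altered line's response against that of shNT. CPM use TMM-scaled library sizes. Alternatives were library totals, relative log expression size factors, no filter, a filter at 5 CPM, a 1.5-fold bound, only the groups compared, the library-number series as a term, DESeq2 1.42.0, and leaving out each library. Promoter windows came from RefSeq, and those of 9 of 10 members were used.

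The members and gene lists were chosen with earlier results of these data known. Of each list, the 3 genes with the smallest adjusted p in shNT were named, except 1 gene that is not reported here, and for each kinase the 4 genes with the highest correlation over 8 groups. Intervals and floors cover counting error or the spread between libraries only.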

Additional observations from a re-analysis of the deposited data

Results flagged for a closer look

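Of the 10 members, 5 had a hypoxia response in HIF1A-/- cells that differed from the response in shNT cells by the test of the difference itself (edgeR quasi-likelihood test, Benjamini-Hochberg adjustment over all genes). PDK1 differed by -1.98 on the log2 scale (adjusted p = 0.000225), with log2 changes of 1.25 in HIF1A-/- and 3.23 in shNT cells. PDK3 differed by -1.65 (adjusted p = 0.000282), with 0.20 in HIF1A-/- and 1.85 in shNT cells. PDP2 differed by 1.49 (adjusted p = 0.00207), with 1.42 in HIF1A-/- and -0.08 in shNT cells. PDHA1 differed by 0.62 (adjusted p = 0.0132), with -0.03 in HIF1A-/- and -0.65 in shNT cells. DLAT differed by 0.55 (adjusted p = 0.0381), with -0.11 in HIF1A-/- and -0.66 in shNT cells. The differences of PDK1, PDK3, PDP2 and PDHA1 were called without any 1 of the 8 libraries, and that of DLAT in 3 of 8 such removals. Comparisons in groups of 2 libraries allow no check for a single library that stands apart.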

How the results depend on the processing

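No paired analysis was possible because the columns carry none of the labels' replicate numbers. The series of library numbers, which no label gives as a pairing, was tried as a term instead. The calls of PDK1 in the 4 lines and of PDK3 in the 3 shRNA lines held without any 1 library. Numbers of members called moved by over 1.5 times as follows. Library totals shifted the median of all genes in hypoxia by -0.275 in HIF1A-/-, -0.164 in shCDK8, -0.233 in shTIP60 and -0.200 in shNT cells. With them hypoxia called 4 members in shCDK8 cells, beside 1447 of 15520 genes higher and 3085 lower. With no filter there were 2 members for shCDK8 and 0 for HIF1A-/- against shNT in normoxia. At 5 CPM, where PDK4 could not be fitted, there was 1 for shTIP60 against shNT in hypoxia. Against a 1.5-fold bound, hypoxia called 2 in HIF1A-/-, 2 in shTIP60 and 2 in shNT cells; against shNT there was 1 for shCDK8 and 0 for shTIP60 in hypoxia, 0 for each line in normoxia, and 3 response differences for HIF1A-/-. With the library-number series as a term, chosen after seeing the data, there were 4 for shTIP60 in hypoxia, 4 for shCDK8 and 2 for HIF1A-/- in normoxia against shNT, and 1 response difference for shCDK8. With only the groups compared, hypoxia called 2 in HIF1A-/- and 8 in shTIP60 cells; against shNT there were 4 for shTIP60 in hypoxia, 2 for shTIP60, 2 for shCDK8 and 0 for HIF1A-/- in normoxia, and 3 response differences for HIF1A-/-. DESeq2 gave 2 for shCDK8 against shNT in normoxia and 1 response difference for shCDK8. Numbers of all genes called moved by over 1.5 times too. They did so in 13 of 13 comparisons against a 1.5-fold bound, 6 with the series term and 5 with only the groups compared. They moved in 2 comparisons each with no filter, at 5 CPM and with DESeq2. Except for the altered composition of the fits, the cause was not tested.

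Leaving out 1 library at a time, with a lone library assumed to vary like the other groups, gave 2 to 6 calls for hypoxia in HIF1A-/-, 2 to 3 for shCDK8 and 1 to 1 for shTIP60 against shNT in hypoxia, and 0 to 1 for shCDK8, 0 to 0 for shTIP60 and 0 to 0 for HIF1A-/- against shNT in normoxia. Of 1667 member values under alternatives, 64 changed sign, all called in neither setting. By canonical transcript PDK1 made up 4.83% of the kinases in hypoxic and 1.85% in normoxic HIF1A-/- cells, 13.96% and 2.98% in hypoxic and normoxic shCDK8 cells, 16.6% and 2.96% in shTIP60 cells, and 13.1% and 2.93% in shNT cells. By coding sequence, in the same order, it made up 20.3% and 8.17%, 47.6% and 12.7%, 52.7% and 12.5%, and 45.6% and 12.3%. Depth limits PDK4, at 28 counts in its lowest library.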
